A study of Mus musculus with 10 samples.

Results

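Tubulin genes encode the alpha and beta subunits of the heterodimer from which microtubules are built. The genes described here were chosen by name: the alpha tubulin genes Tuba1a, Tuba1b and Tuba1c and the beta tubulin genes Tubb2a, Tubb2b, Tubb3, Tubb4b and Tubb5, 8 of the 13272 genes with reads. All 8 were detected, with 16075 of 2042110 kept reads (0.787%). The RNA came from P19 mouse embryonal carcinoma cells, a pluripotent line, transfected with a scrambled siRNA pool (siCtl) or with an siRNA directed at Larp1 (siLarp1). Cells were collected at 24 h (3 siCtl and 3 siLarp1 libraries) or at 48 h (2 and 2 libraries), with a second transfection between these times, so every group carried an siRNA. Polyadenylated RNA was read as native molecules on Nanopore flow cells, and a poly(A) tail length was estimated for each read. A read is 1 RNA molecule entered from its 3′ end, so read numbers were not divided by transcript length. At 24 h the siCtl and siLarp1 libraries were barcoded in separate pools and the pool and the treatment cannot be told apart, while the 48 h libraries shared a pool.

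Tubulin mRNAs are known for autoregulation. When soluble tubulin is in excess, the factor TTC5 recognises the amino terminus of a tubulin chain as it leaves the ribosome, and the adaptor SCAPER and the CCR4-NOT deadenylase are then engaged to shorten the tail of the mRNA being translated. LARP1 is an RNA-binding protein that associates with poly(A) tails and with mRNAs that begin with a 5′ terminal oligopyrimidine (TOP) tract. The comparison asked whether tail length classes and mRNA levels change when Larp1 is depleted.

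The opening of the coding sequence is shown because its first codons spell the peptide that autoregulation reads. These 30 bases, 5′ to 3′ from the start codon, were taken from GENCODE transcripts of build GRCm38 (the assembly mm10), and the capitals mark the opening 4 codons.
Tuba1a: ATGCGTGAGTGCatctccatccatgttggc
Tuba1b: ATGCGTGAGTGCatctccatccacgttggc
Tuba1c: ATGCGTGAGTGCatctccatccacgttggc
Tubb2a: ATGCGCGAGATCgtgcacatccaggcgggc
Tubb2b: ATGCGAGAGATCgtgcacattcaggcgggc
Tubb3: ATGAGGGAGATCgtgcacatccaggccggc
Tubb4b: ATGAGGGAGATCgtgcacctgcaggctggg
Tubb5: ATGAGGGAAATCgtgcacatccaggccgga

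The 3 alpha genes opened with the same 12 bases, and Tubb3 and Tubb4b shared theirs, while Tubb2a, Tubb2b and Tubb5 each had their own. Each of these openings was rare among the 53774 annotated coding transcripts that begin with a start codon: the alpha opening was found in 4 of them (0.00744%), in the 3 genes named and in the predicted gene Gm49450. In the alpha genes an intron follows the start codon directly. The start codon of Tuba1b lay at chr15:98934333-98934335 on the minus strand, alone in its coding exon, and the next 3 codons lay at chr15:98933187-98933195. In the beta genes the opening lay in 1 exon, at chr17:35838042-35838053 on the minus strand for Tubb5. Coding sequences were 97.1 to 98.3% identical among the alpha genes and 81.4 to 96.5% among the beta genes. Reads were nonetheless assigned to single members: 62 tubulin reads (0.386%) aligned to more than 1 sequence, and 0 reads aligned to a pair of these genes.

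Larp1 itself fell. It was at 75.9, 84.2 and 85.0 reads per 1000000 kept reads (RPM) in siCtl and at 33.4, 44.9 and 19.1 RPM in siLarp1 at 24 h, and at 169 and 123 RPM against 18.5 and 24.9 RPM at 48 h. The siLarp1 mean was 39.7% of the siCtl mean at 24 h and 14.9% at 48 h, with a log2 change over both time points of -1.73 (SE 0.32, adjusted p = 0.00186, limma). In the fits of single time points Larp1 itself did not pass (log2 change -1.34 at 24 h, adjusted p = 0.827, and -2.52 at 48 h, adjusted p = 0.252, limma), so that a gene read as rarely as Larp1 could fall this far without being called there. The libraries held between 112720 and 423398 kept reads, and at 24 h the siCtl libraries were deeper (289738 to 423398) than the siLarp1 libraries (119863 to 157054). All 8 pluripotency markers examined had reads (3059 to 4226 RPM summed per library), and Pou5f1 gave 5346 of their 7416 reads. Nanog had 114 reads, Sall4 35 and Dppa5a 8. Of 8 neuronal markers 7 had reads, 179 to 307 RPM summed, of which Stmn2 gave 421 of 491 reads and Syt1 was at 0. Primitive endoderm markers were detected for 3 of 6 genes and summed to at most 24.9 RPM.

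Tubulin mRNA was abundant and its order of levels was stable. Tuba1b was the most read member with 6099 reads and the 75th most read gene of all. It was followed by Tubb5 (4579 reads), Tuba1a (3172), Tubb4b (1267), Tuba1c (535), Tubb2b (290), Tubb3 (99) and Tubb2a (34). In the 5 siCtl libraries these genes averaged 2999 ± 135, 2254 ± 151, 1469 ± 103, 609.5 ± 59.1, 277 ± 42.3, 148 ± 21.2, 47.1 ± 20.6 and 13.0 ± 11.5 RPM (SD, n = 5) in the same order. Each gene exceeded the next in 10 of 10 libraries, except that Tuba1c exceeded Tubb2b and Tubb3 exceeded Tubb2a in 9 of 10. Tubb2a and Tubb3, the latter encoding the beta isotype typical of neurons, were thinly read. The alpha genes contributed 58.1 to 63.2% of tubulin reads in every library.

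**Figure D1:**
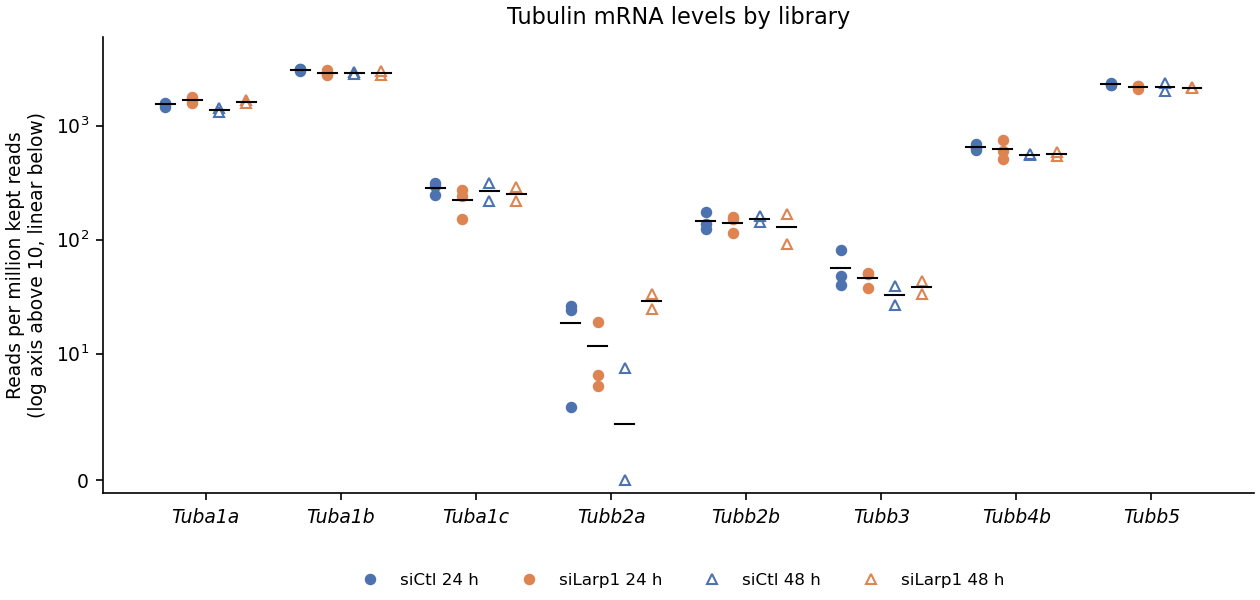
Reads per 1000000 kept reads (RPM, vertical axis, logarithmic above 10 and linear below) for each of the 8 tubulin genes; each point is a library, filled circles are 24 h, open triangles 48 h, blue siCtl, orange siLarp1, and bars are group means. Levels span from 13.0 RPM (Tubb2a, siCtl mean) to 2999 RPM (Tuba1b), and the groups of a gene lie close together for the abundant genes.

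The level of no tubulin mRNA passed the test after Larp1 depletion. A gene entered the fit from 30 reads per time point upward. Of the tubulin genes that did, 0 of 7 were called at 24 h (Benjamini-Hochberg adjusted p under 0.05, limma voom), beside 0 of 4800 genes (0%). At 48 h 0 of 6 were called, beside 0 of 2704 genes (0%), and over both time points 0 of 6, beside 5 of 2698 (0.185%), of which 2 were higher (0.0741%) and 3 lower (0.111%). At an unadjusted p under 0.05 the counts were 0, 0 and 1, where 5.62, 4.99 and 6.45% of all genes tested lay under that limit. The median log2 difference of the tested members was -0.08 at 24 h, -0.01 at 48 h and -0.06 over both, against 0.01, 0.02 and 0.01 over all genes tested. In such bulk libraries fewer cells of a type and less RNA per cell cannot be told apart.

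Tuba1a, a major alpha tubulin of the developing nervous system, was the member with the unadjusted p under 0.05. It was at 1467, 1586 and 1542 RPM in siCtl and 1710.3, 1794 and 1566 RPM in siLarp1 at 24 h, and at 1428 and 1321 RPM against 1672 and 1568 RPM at 48 h. The groups overlapped at 24 h and did not at 48 h, where groups that do not overlap were found for 18.2% of all genes in this direction and for 34.1% in either. The log2 difference over both time points was 0.17 (95% interval 0.03 to 0.32, adjusted p = 0.669, limma).

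Tuba1b, the alpha isotype expressed in most cell types, was at 3141, 2995 and 3115 RPM in siCtl and 3087, 2781 and 2846 RPM in siLarp1 at 24 h. At 48 h it was at 2928 and 2815 RPM against 2795 and 3019 RPM. Both pairs of groups overlapped, and the log2 difference over both time points was -0.06 with a 95% interval of -0.17 to 0.06 (adjusted p = 0.896, limma), the narrowest interval of the tested members.

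Tubb5, the most abundant beta tubulin here, was at 2261, 2373 and 2253 RPM in siCtl and 2219, 2093 and 2203 RPM in siLarp1 at 24 h, and at 2005 and 2378 RPM against 2190.3 and 2115 RPM at 48 h. Every siLarp1 library at 24 h lay below every siCtl library, as was the case for 6.19% of all genes (4.69% in the other direction), and the exact permutation test gave p = 0.100, the smallest that 3 against 3 libraries allow. The siLarp1 mean was 94.6% of the siCtl mean, and the fitted difference over both time points was -0.06 (95% interval -0.19 to 0.06, adjusted p = 0.896, limma).

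Tubb4b, a beta tubulin of ciliated and many other cells, was at 607, 636 and 694 RPM in siCtl and 601, 508 and 751 RPM in siLarp1 at 24 h, and at 550.0 and 559.6 RPM against 543 and 581 RPM at 48 h. Its log2 difference over both time points was -0.04 (95% interval -0.25 to 0.17). Tuba1c had the lowest fitted value, -0.23 (95% interval -0.55 to 0.08), and this moved with single libraries: it was at 314, 296 and 248 RPM in siCtl and at 150.2, 239 and 274 RPM in siLarp1 at 24 h, and without siLarp1 library 19 (150.2 RPM, 18 reads) the value was -0.09. Without siCtl library 25 of 48 h it was -0.34, and with reads of all tail quality tags -0.36 (adjusted p = 0.567, limma). Tubb2b ranged from 123 to 176 RPM in siCtl and from 91.2 to 167 RPM in siLarp1, with a difference of -0.09 (95% interval -0.48 to 0.30). For Tubb3 a fit was possible at 24 h alone, where the log2 difference was -0.14 (95% interval -0.90 to 0.62), and Tubb2a had too few reads for any fit.

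**Figure D2:**
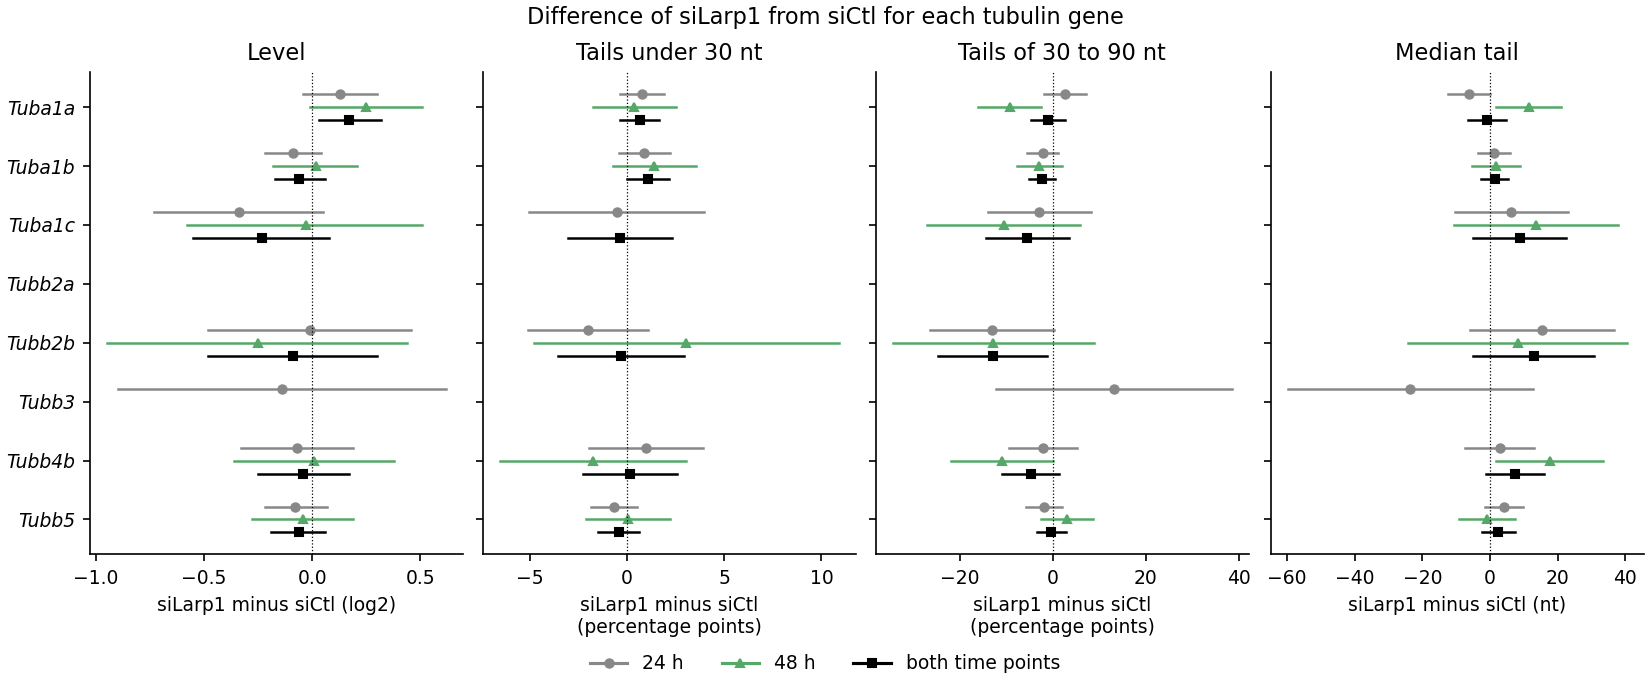
Fitted difference of siLarp1 from siCtl (horizontal axis, in the unit given under each panel) with its 95% interval for each tubulin gene, at 24 h (grey), 48 h (green) and over both time points (black). Intervals for the level of Tuba1b, Tubb5 and Tubb4b over both time points include 0, and Tubb2a has no fit.

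Summed over the 8 genes, tubulin mRNA was at 8038, 8110.5 and 8042 RPM in siCtl and 7976, 7618 and 7825 RPM in siLarp1 at 24 h, and at 7399 and 7493 RPM against 7651 and 7731 RPM at 48 h. The siLarp1 libraries thus lay below siCtl at 24 h (96.8% of the siCtl mean) and above it at 48 h (103%), without overlap at either time. Of single genes 10.9% at 24 h and 34.1% at 48 h had groups that do not overlap, in either direction. These sums were scaled to kept totals. Scaling by the median of gene ratios shifted log2 differences by -0.02 at 24 h and by -0.05 at 48 h. The 48 h shift is about as large as the difference of the sum at that time. The sum was not recomputed on that scale, so its direction at 48 h is given for kept totals only. At 48 h the alpha genes summed to 4666 and 4354 RPM in siCtl and 4683 and 4877 RPM in siLarp1, without overlap, while the beta genes summed to 2732 and 3139 RPM against 2968 and 2853 RPM and overlapped.

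Tails shorter than 30 nt were few on tubulin mRNAs. Pooled over libraries they made up 208 of 6099 Tuba1b reads (3.41%), 113 of 4579 Tubb5 reads (2.47%), 50 of 3172 Tuba1a reads (1.58%) and 45 of 1267 Tubb4b reads (3.55%). Tubb3 had 0 of 99 reads in this class, which allows a share of up to 3.03%. Of the 2159 genes with at least 5 reads in every library, 57.2% had a lower siCtl share than Tuba1b and 23.9% a lower share than Tuba1a. The Tuba1a share was below the Tuba1b share in 10 of 10 libraries, by a mean of 1.87 percentage points (exact sign-flip permutation test over libraries, two-sided p = 0.00195, adjusted p = 0.0117 over 18 comparisons among the 4 most read members). That p is the smallest that 10 libraries allow, and the comparisons were chosen after the values were seen.

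The share of these short tails passed the test in siLarp1 for 0 of 6 tubulin genes at 24 h, beside 13 of 3852 genes (0.337%), for 0 of 5 at 48 h, beside 10 of 2283 (0.438%), and for 0 of 6 over both time points, beside 49 of 2601 (1.88%), all 49 of them higher. No tested member had an unadjusted p under 0.05 in these fits (limma), beside 3.53, 5.04 and 7.0% of all genes tested. The members' median difference was 0.12 percentage points at 24 h, 0.38 at 48 h and -0.08 over both time points. Over all genes tested it was -0.28, 0.71 and 0.32 in that order. Larp1 depletion was accompanied by a higher share of short tails over all reads, 2.63 to 3.22% against 2.15 to 2.42% at 24 h and 4.20 and 3.37% against 2.96 and 2.82% at 48 h.

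Tuba1b came closest to the threshold for short tails. Its share was 3.19, 2.72 and 2.81% in siCtl and 2.70, 4.03 and 4.47% in siLarp1 at 24 h, and 3.64 and 3.38% against 5.96 and 3.57% at 48 h. The groups overlapped at both times, since 1 siLarp1 library at each time lay within or below the siCtl range. The fitted difference over both time points was 1.07 percentage points (95% interval -0.0155 to 2.15, adjusted p = 0.718, limma). The highest library, siLarp1 library 24 at 48 h, had 27 short tails in 453 reads (95% Wilson interval 4.13 to 8.53%, which covers counting error only), and without it the 48 h difference was 0.0900 instead of 1.41 percentage points. Without siLarp1 library 25 it was 2.48 percentage points (adjusted p = 0.0834, limma), so each of the 48 h siLarp1 libraries moved the value by over 1.5 times. On the log2 odds of a short tail, with 0.5 added to the counts, the Tuba1b difference over both time points was 0.48 (adjusted p = 0.0941, limma). Unlike a percentage, that value shifts with depth, and the siCtl libraries were deeper at 24 h. A logistic model, which adds no constant, gave Tuba1b differences of 0.41 at 24 h and 0.51 at 48 h, called at neither time. The log2 odds gave 0.45 and 0.54. The part of depth in them was not tested.

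For Tuba1a the short share was 1.88, 0.733 and 0.919% in siCtl and 1.95, 2.08 and 1.63% in siLarp1 at 24 h, and 0.621 and 2.97% against 1.85 and 3.17% at 48 h. The groups overlapped at both times and the fitted difference was 0.652 percentage points (95% interval -0.348 to 1.65). Tubb5 went from 2.90, 1.84 and 2.41% to 3.01, 1.07 and 1.16% at 24 h and from 2.65 and 3.53% to 3.66 and 2.75% at 48 h, a difference of -0.433 percentage points (95% interval -1.48 to 0.612) that was -0.174 without siLarp1 library 22 and -0.734 without siLarp1 library 19 of 24 h. In Tubb4b, Tuba1c and Tubb2b the shares rested on at most 13 short reads in a library and ranged from 0 to 9.00%, 0 to 11.1% and 0 to 7.41%. Tubb2b had 3 short tails in 150 reads of siCtl at 24 h and 0 in 57 reads of siLarp1, which allows a share of up to 5.26%, so no difference was detectable at this depth.

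Tails of 30 to 90 nt, the class around 60 nt, were more frequent. They made up 40.4% of all Tuba1b reads, 39.7% of Tubb4b reads, 33.9% of Tuba1a reads and 33.0% of Tubb5 reads. The share passed the test for 0 of 7 tubulin genes at 24 h, beside 6 of 4797 genes (0.125%), for 0 of 6 at 48 h, beside 0 of 2704 (0%), and for 0 of 6 over both time points, beside 9 of 2698 (0.334%), of which 6 were higher (0.222%) and 3 lower (0.111%). With an unadjusted p under 0.05 the counts were 0, 1 (Tuba1a) and 1 (Tubb2b), beside 5.55, 7.03 and 7.26% of all genes tested. At 48 h siLarp1 lay below siCtl without overlap in 5 of the 6 members compared, Tuba1a, Tuba1b, Tuba1c, Tubb2b and Tubb4b, and this held for 23.6% of all genes. These members were read from the same 2 siCtl and 2 siLarp1 libraries and are not separate cases. Tubb3, too thinly read to be compared, went the other way (0 and 28.6% of 10 siCtl reads, 42.9 and 100.0% of 11 siLarp1 reads). The median difference of the tested members was -2.17 percentage points at 24 h, -9.98 at 48 h and -3.63 over both time points. Over all genes tested it was -1.26, -2.94 and -1.60 in that order. Over all reads the share at 48 h was 41.7 and 40.7% in siCtl and 39.9 and 37.0% in siLarp1. At 24 h the shares over all reads overlapped between the groups.

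Tuba1a held 45.3 and 43.6% of such tails in siCtl at 48 h and 37.6 and 31.2% in siLarp1. The fitted difference was -9.33 percentage points (SE 3.43, adjusted p = 0.556, limma). At 24 h its shares were 30.8, 32.1 and 30.6% in siCtl and 31.2, 32.1 and 37.4% in siLarp1, and the siCtl and siLarp1 ranges overlapped. Tubb4b was at 45.2 and 42.0% in siCtl and 34.1 and 30% in siLarp1 at 48 h (difference -10.9 percentage points, adjusted p = 0.710, limma). Tubb2b, a beta isotype of neural progenitors, was at 33.3, 25.5 and 32.7% in siCtl and 5.56, 33.3 and 11.1% in siLarp1 at 24 h, and at 43.8 and 44.8% against 29.6 and 36.4% at 48 h, from 11 to 52 reads a library. Its difference over both time points was -13.0 percentage points (95% interval -24.8 to -1.28, adjusted p = 0.620, limma). Tubb5 stood apart from these members at 48 h, with 32.7 and 32.5% in siCtl and 39.2 and 30.6% in siLarp1, which overlapped.

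**Figure D3:**
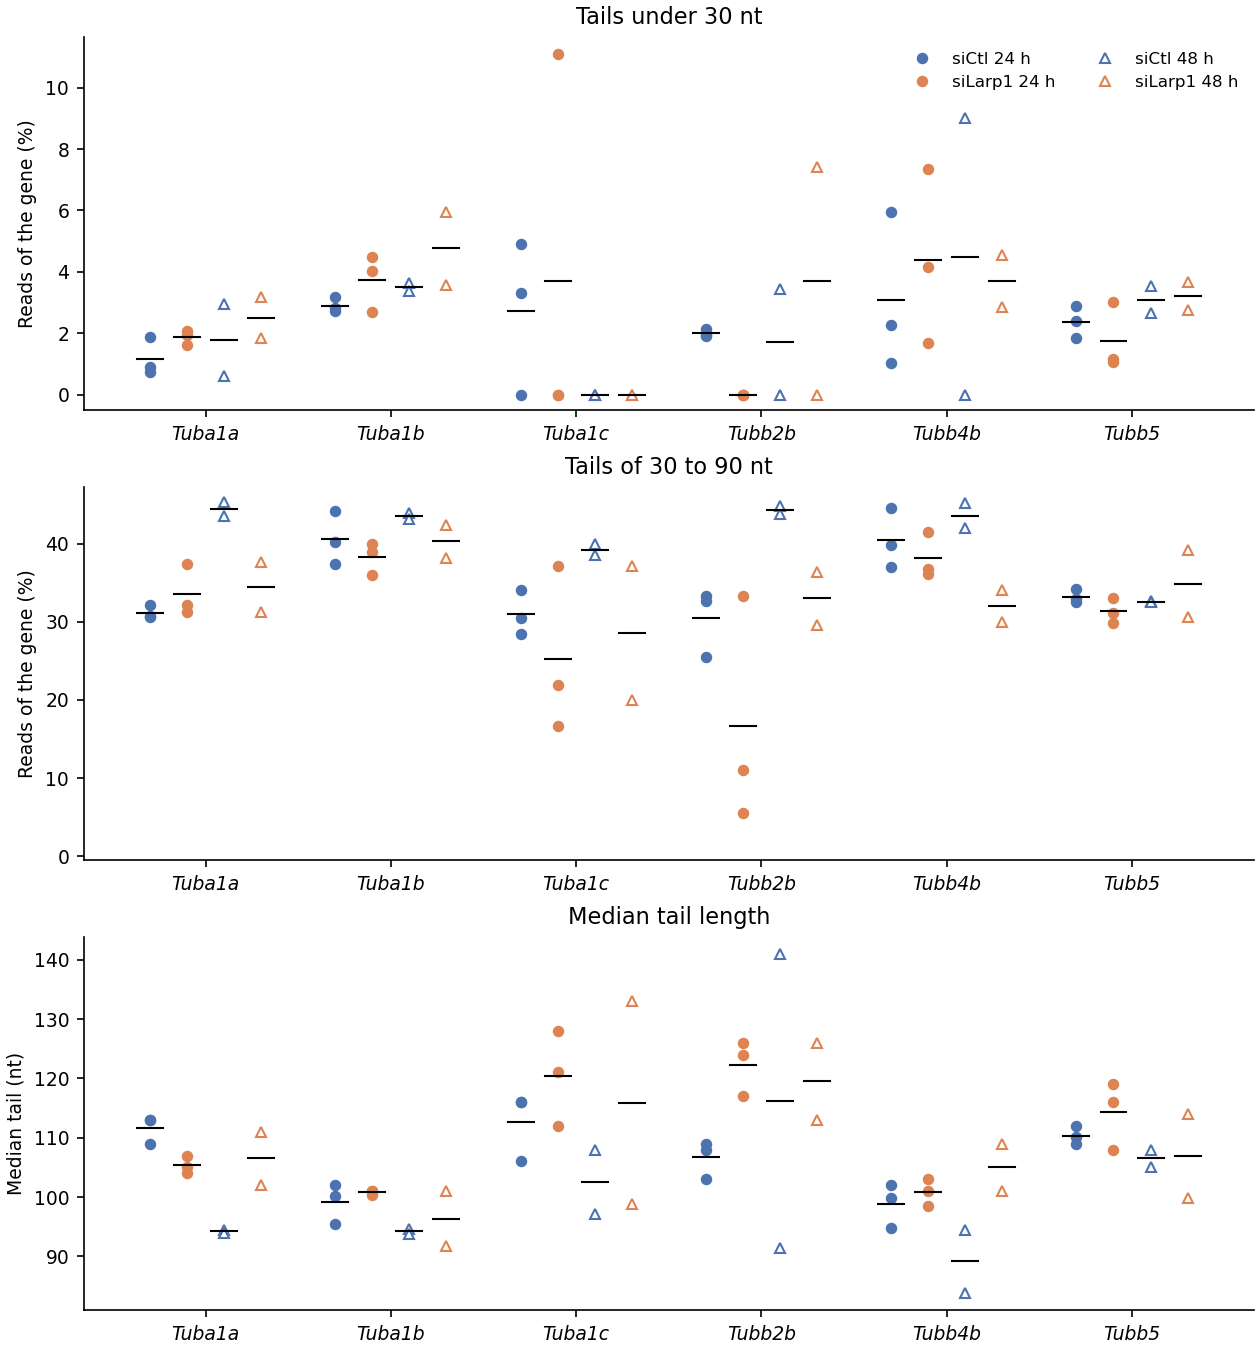
Share of reads with tails under 30 nt (top, %), share with tails of 30 to 90 nt (middle, %) and median tail length (bottom, nt) for the 6 tubulin genes fitted at both time points; each point is a library, filled circles are 24 h, open triangles 48 h, blue siCtl, orange siLarp1, and bars are group means. At 48 h the siLarp1 points of Tuba1a and Tubb4b lie below siCtl in the middle panel and above it in the bottom panel.

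Median tail lengths placed the members on both sides of the other mRNAs. The siCtl means were 94.9 ± 6.98 nt for Tubb4b, 97.2 ± 3.55 nt for Tuba1b, 105 ± 9.69 nt for Tuba1a, 109 ± 7.71 nt for Tuba1c, 109 ± 2.81 nt for Tubb5 and 110.3 ± 18.3 nt for Tubb2b (SD, n = 5), beside a median of 102 nt over 2159 genes. Of those genes 25.6% had a shorter median than Tubb4b and 70.6% a shorter one than Tubb5. Tubb5 tails exceeded Tuba1b tails in 10 of 10 libraries, by 12 ± 3.28 nt (SD, exact sign-flip permutation test, p = 0.00195, adjusted p = 0.0117 over 18 comparisons). Tuba1a exceeded Tuba1b in 9 of 10 libraries by a mean of 7.18 nt (exact permutation p = 0.00586, adjusted p = 0.0211). Neighbours in the order were less distinct: Tubb4b and Tuba1b differed by 0.605 ± 7.26 nt, and Tubb5 was above Tuba1c in 5 of 10 libraries. Tubb3 and Tubb2a were too thinly read for a place in this order.

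Within a gene the tails spread widely. In Tuba1b the tenth percentile lay between 37.0 and 44.9 nt and the ninetieth between 155 and 169.5 nt across the 10 libraries. In Tubb5 these were 47.7 to 53.6 nt and 161 to 178 nt. The ranges of the tenth percentile did not overlap between these genes, while those of the ninetieth did. For Tuba1a the tenth percentile lay between 46.1 and 58.5 nt and the ninetieth between 158 and 176 nt.

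**Figure D4:**
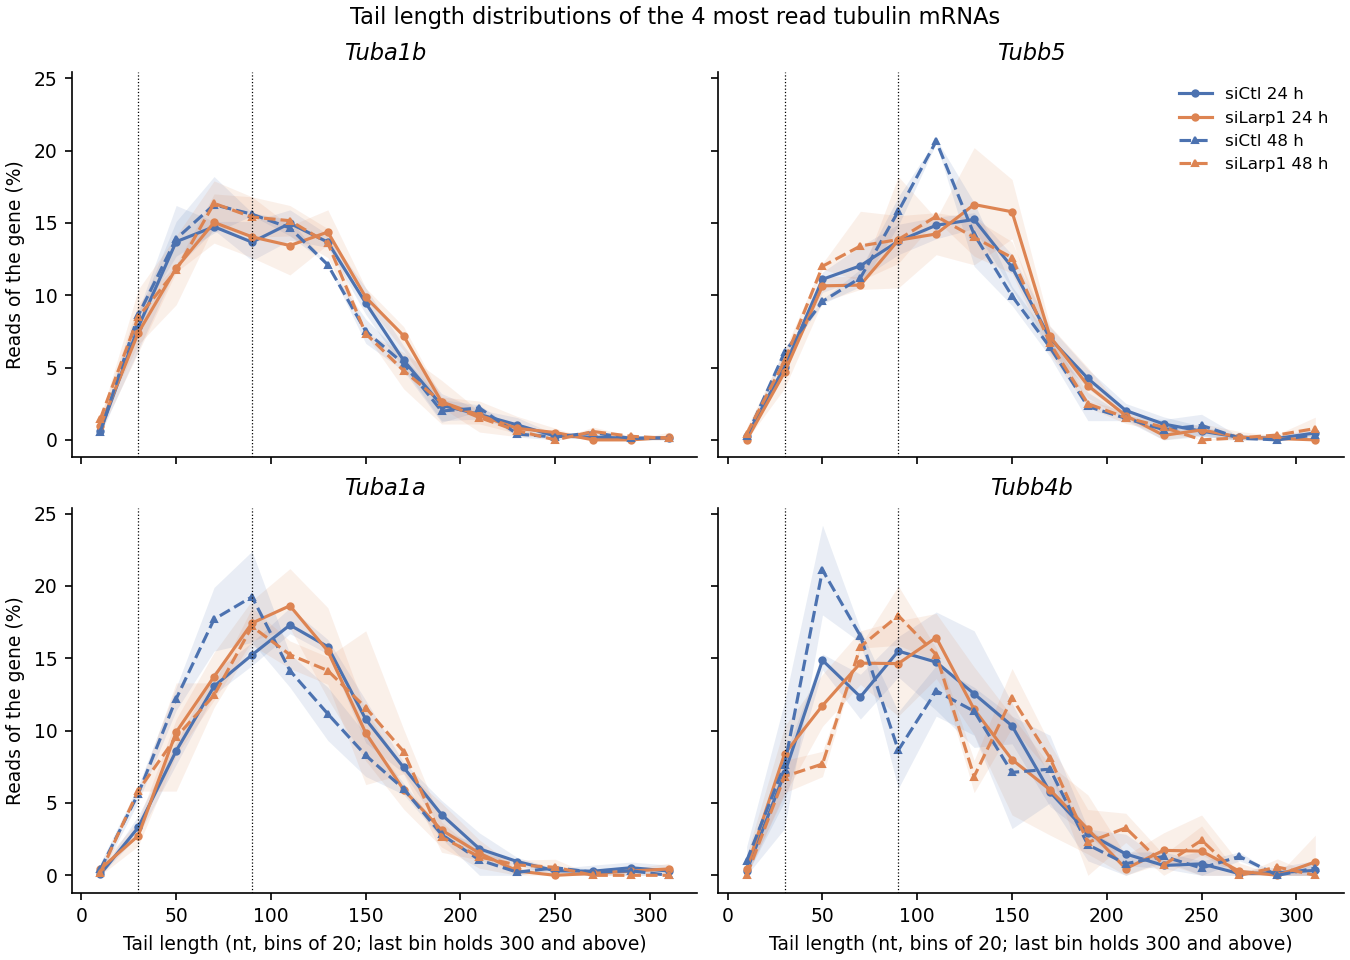
Tail length distributions of Tuba1b, Tubb5, Tuba1a and Tubb4b in bins of 20 nt (horizontal axis; the last bin holds all longer tails) as percent of the gene's reads (vertical axis); lines are group means, shading spans the lowest and highest library, solid lines are 24 h, dashed lines 48 h, and dotted verticals mark 30 and 90 nt. The curves of siCtl and siLarp1 overlap over most of the range, and the 48 h siCtl curve of Tuba1a lies further left than its other curves.

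The median tail passed the test for 0 of 7 tubulin genes at 24 h, beside 2 of 2568 genes (0.0779%), for 0 of 6 at 48 h, beside 0 of 2415 (0%), and for 0 of 6 over both time points, beside 3 of 2118 (0.142%). With an unadjusted p under 0.05 the counts were 0, 2 (Tuba1a and Tubb4b) and 0 (limma), beside 5.84, 5.88 and 6.70% of all genes tested. Without overlap, siLarp1 was higher in 1 member at 24 h, Tubb2b (6.27% of all genes), and lower in 2, Tuba1a and Tubb3 (5.37%), and at 48 h it was higher in 2, Tuba1a and Tubb4b (21.3%). The members' median difference was 2.82 nt at 24 h, 9.79 nt at 48 h and 4.84 nt over both, against 1.40, 2.85 and 1.89 nt over all genes.

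Tuba1a medians were 113, 109 and 113 nt in siCtl and 107, 105 and 104 nt in siLarp1 at 24 h, and 94.5 and 93.9 nt against 102 and 111 nt at 48 h. The siLarp1 tails were therefore shorter at 24 h and longer at 48 h, without overlap at either time. The difference between the 48 h and the 24 h effect was 17.7 nt (SE 5.67, adjusted p = 0.813, limma), and 0 of 2118 genes were called in that fit (0%). The siCtl libraries themselves differed between the times: over all reads their median tail was 102 to 104 nt at 24 h and 97.1 and 98.6 nt at 48 h. The part of this difference in the Tuba1a result was not tested. Tubb4b medians at 48 h were 94.5 and 83.8 nt in siCtl and 109 and 101 nt in siLarp1 (difference 17.6 nt, SE 7.82, adjusted p = 0.826, limma). At 24 h Tubb4b was at 102, 99.9 and 94.8 nt against 101, 98.5 and 103 nt, and the groups overlapped. Tuba1b, by contrast, was at 95.5, 102 and 100.1 nt against 101, 101 and 100.3 nt at 24 h and at 94.6 and 93.8 nt against 91.7 and 101 nt at 48 h, with a difference over both time points of 1.38 nt (95% interval -2.62 to 5.38) that was 0.290 nt without siLarp1 library 25 and 2.51 nt without siLarp1 library 24 of 48 h.

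Tubb5 was read with a pair of 3′ ends, which was noticed after its values were seen. Most reads ended near base 1765 of the 2649-base transcript, at chr17:35834805 on the minus strand, which leaves a 3′ untranslated region of 177 nt. The other 405 reads (8.84%), defined as ending over 100 bases further on, ended mostly at the annotated end, chr17:35833921, with an untranslated region of 1061 nt. The motif AATAAA was searched on the transcript strand in the 50 bases before each end and was found 15 bases upstream of both. It is present in the last 50 bases of 40.5% of 58797 annotated coding transcripts. The 30 bases around each motif are shown to place these ends, with the motif in capitals.
Tubb5 proximal, chr17:35834808-35834837: tggcaggcactcAATAAAtatttgtttgtg
Tubb5 distal, chr17:35833924-35833953: cccagagccaaaAATAAAtgggaattggaa

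Reads with the distal end carried longer tails. Their median was 128 to 138 nt in siCtl at 24 h, 137 to 156 nt in siLarp1 at 24 h, 120.3 and 121 nt in siCtl at 48 h and 124 and 142 nt in siLarp1 at 48 h. Proximal reads had medians between 96.6 and 117 nt. The distal tails were longer in 10 of 10 libraries, by 26.6 ± 10.5 nt (SD, two-sided exact sign-flip permutation p = 0.00195, the lowest possible with 10 libraries). The 30 to 90 nt class held 16.5 ± 6.24% of distal and 34.4 ± 2.55% of proximal reads and was smaller for distal reads in 10 of 10 libraries. Tails under 30 nt were found on 2 of 405 distal reads (0.494%, 95% Wilson interval 0.136 to 1.78%) and on 111 of 4174 proximal reads (2.66%, interval 2.21 to 3.19%).

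Use of the distal end overlapped between the treatments. It made up 10.1, 9.67 and 8.49% of Tubb5 reads in siCtl and 7.14, 7.50 and 8.67% in siLarp1 at 24 h (exact permutation p = 0.2), and 7.52 and 10.4% against 5.92 and 10.6% at 48 h. Distal tails at 24 h were at 132, 138 and 128 nt in siCtl and 137, 156 and 149.5 nt in siLarp1, which overlapped (exact permutation p = 0.2), and at 48 h the siLarp1 values lay above siCtl (exact permutation p = 0.333, the smallest that 2 against 2 libraries allow). Of the other members, 93.1 to 100.0% of reads ended within 25 bases of their commonest end. For Tubb2b that end, base 1709, lay well short of the annotated 2182 bases.

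**Figure D5:**
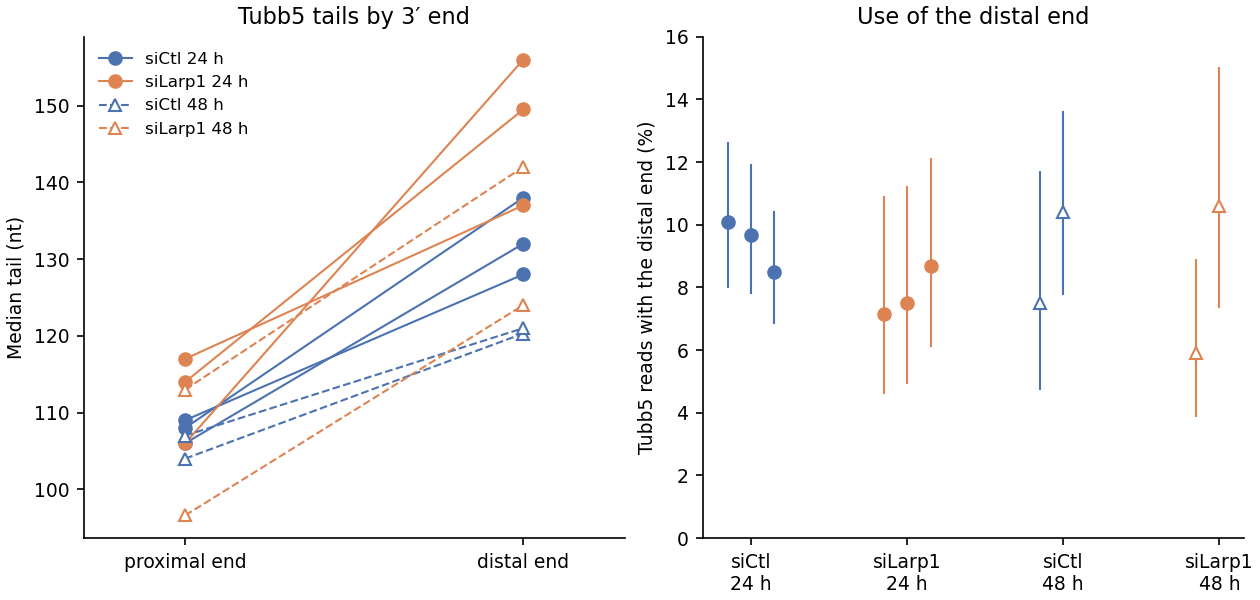
Left, median tail length (nt) of Tubb5 reads with the proximal and the distal 3′ end, a line for each library; right, percent of Tubb5 reads with the distal end, with 95% Wilson intervals. Filled circles are 24 h, open triangles 48 h, blue siCtl and orange siLarp1; all 10 lines rise from the proximal to the distal end.

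At the other end of the transcript, 10243 of 16075 tubulin reads (63.7%) extended over the start codon and so held the codons printed above. The share was 70.1 ± 2.21% in siCtl and 66.3 ± 2.14% in siLarp1 at 24 h (SD, n = 3) and 51.5 ± 16% against 51.0 ± 3.40% at 48 h (n = 2). At 24 h the groups did not overlap (68.1 to 72.5% in siCtl, 63.9 to 67.8% in siLarp1). This share was computed for tubulin reads only, so it is not known to be particular to them. Pool and treatment cannot be told apart at that time. The summed tubulin level did not overlap at 24 h either, and the part of read completeness in that level was not tested. At 48 h siCtl library 25 stood apart at 40.2%, with siCtl library 24 at 62.8% and siLarp1 at 48.6 and 53.4%. The tails of reads over the start codon were longer than those of the other tubulin reads in 5 of 10 libraries, with a mean difference of -0.600 nt. The most read members differed in this. Such tails were longer in 8 of 10 libraries for Tuba1a (mean 4.48 nt) and 5 for Tuba1b (0.340 nt). For Tubb5 this held in 3 libraries (-0.990 nt) and for Tubb4b in 2 (-12.0 nt). Tubb5 was the member whose annotated transcript starts with C and at least 5 pyrimidines, the letters of a TOP tract, as do 2.14% of annotated coding transcripts. Its reads started most often at base 87 of that transcript, so the annotated start was not the commonest one seen. This limit also applies to other members, with commonest starts at base 168 in Tuba1a, 144 in Tuba1b, 444 in Tuba1c and 141 in Tubb3. The starts seen in reads were not searched for a TOP tract.

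Among other genes of the tubulin system none was called, as was the case for nearly all genes tested over both time points (0.185% called for level, limma). Of 12 further tubulin genes 6 had reads, and 0 of the 3 fitted over both time points were called in any of the 4 measures. The most read were Tubb6, another beta tubulin, with a log2 difference of -0.11 (SE 0.19), and Tuba4a, an alpha tubulin, with 0.56 (SE 0.22, adjusted p = 0.562, limma). Of 12 genes for tubulin folding, which include the prefoldin subunits that hand nascent tubulin to the chaperonin, 9 were fitted and 0 called, with a median log2 difference of -0.04, and Pfdn1 and Pfdn6 were at 0.14 (SE 0.15) and -0.20 (SE 0.17). Of 12 genes for autoregulation and CCR4-NOT, 5 were fitted and 0 called, with a median of 0.07. Cnot1, the scaffold of CCR4-NOT, was at 0.07 (SE 0.20) and Cnot8, one of its deadenylases, at -0.01 (SE 0.28), while the reader Ttc5 with 69 reads and Scaper with 7, named for their role, were too rare for that fit. Of 12 microtubule-binding proteins 6 were fitted and 0 called, with a median of 0.16. Stmn1, which sequesters tubulin dimers, was at 0.08 (SE 0.09) and the plus-end protein Mapre1 at 0.23 (SE 0.17). The median over all genes tested was 0.01.

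Across the 10 libraries, the summed tubulin level ran most closely with Tomm20, a mitochondrial import receptor (Pearson r = 0.95 of log2 RPM), Nme1, a nucleoside diphosphate kinase (r = 0.86), and Eef1d, a translation elongation factor subunit (r = 0.85), among 274 other genes with at least 1000 reads. This describes libraries that share pools and treatments and includes the difference between the time points.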

How the data were processed

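Each line of the deposited table is an alignment of a read to a transcript. Per the study's methods and the labels, the authors called bases with Guppy, assigned barcodes with Deeplexicon, aligned reads with Minimap2 (version 2.20 in the submitters' processing notes) to GENCODE transcripts of mm10, and estimated tails in nt with Nanopolish. From the authors' tools the deposited lines also carry a fraction (confidence of the barcode) and a score (mapping quality). Libraries are named by number in the table and were mapped to the labelled groups through their condition. The study's methods call the barcoded samples of a group biological replicates. The match of library numbers to labelled replicates was not given in the sources used here.

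Reads on mRNA with a passing tail tag were kept and tallied per gene. Genes with at least 30 reads at each time point entered limma 3.58.1 (R 4.3.3): voom on tallied reads scaled to each library's kept total, or weighted fits of the percentage of reads in a tail class or of the median tail (at least 5 reads in every library), adjusted by Benjamini-Hochberg over all genes tested. The fit over both time points had time as a term. The scripts were tested on simulated data, with changes given to genes outside the most read. Tuba1b and Tubb5 ranked 75th and 99th by reads, so the rates for such genes need not hold for them. Simulated tail shares varied between libraries by counting error only. For short tails, a change of 3 percentage points was called in 8.96% of such genes at 24 h, 0% at 48 h and 8.96% over both time points. A change of 20 percentage points was called in 78.8, 16.7 and 95.5%. A count of 0 tubulin genes called thus does not show that small changes were absent. Single values were compared by exact permutation tests, which cannot go below p = 0.100 for 3 against 3 libraries or 0.333 for 2 against 2. The members and gene lists were chosen with earlier results of these data known. Other genes were named as the 2 most read of each list. Sequences and coordinates came from GENCODE vM21 on GRCm38, the same assembly.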

Additional observations from a re-analysis of the deposited data

Results flagged for a closer look

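Scaled to kept totals, the summed level of the 8 tubulin genes moved in opposite directions at the time points, with every library of a group on the same side: the siLarp1 mean was lower than the siCtl mean by 257 RPM at 24 h (a difference of -257 RPM, 3 against 3 libraries) and higher by 245 RPM at 48 h (2 against 2). Scaling by the median of gene ratios shifted log2 differences at 48 h by -0.05, about the size of the 48 h difference of the sum itself. The sum was not recomputed on that scale, so the opposite directions are given for kept totals only. The difference between the times was not tested for the sum, and for the single genes 0 of 6 were called in that fit (limma), with 0 at an unadjusted p under 0.05, beside 0 of 2698 genes called and 4.19% of them at that unadjusted limit.

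The median tail of Tuba1a also moved in opposite directions, by -6.20 nt between the group means at 24 h and by 12.2 nt at 48 h, with no overlap of libraries at either time. Of all genes, 5.37% were lower without overlap at 24 h and 21.3% higher at 48 h. The fitted difference of the effects had an unadjusted p of 0.00300 and failed the correction over 2118 genes (adjusted p = 0.813, limma).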

How the results depend on the processing

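The count of tubulin genes called was 0 in every fit and stayed 0 in all 288 alternatives run (read minimum, 1 alignment per read, mapping quality, barcode confidence, quality tags, most read transcript, scaling, weights, other share models, a 20 nt limit, mean tail, the replicate block and leaving out each library). Whether the library numbers pair the samples was not given, and the main fits did not use them as pairs. Same-numbered libraries at 24 h had correlations of deviations of 0.0637, 0.269 and 0.278. At 48 h both numbers gave 0.117, which is 1 value, since the 2 libraries of a group deviate from their mean by the same amount. With the replicate block 0 tubulin genes were called, while over all genes the calls for level went from 0 to 20 of 4800 at 24 h, from 0 to 4 of 2704 at 48 h and from 5 to 16 of 2698 over both. Of 624 alternatives for single genes 589 kept the sign, and the lowest adjusted p was 0.0834, for the short share of Tuba1b at 48 h without siLarp1 library 25. Over both time points the unadjusted p of that share (0.0534) went to 0.00470 on the log2 odds (adjusted p = 0.0941, limma), 0.0351 with barcode confidence, 0.0409 in the logistic model, 0.0432 with the 20 nt limit, 0.0475 with 1 alignment and 0.0480 with all tags, and on the log2 odds it was 0.0137 at 24 h and 0.0277 at 48 h. The sign of a small short-tail difference (percentage points, or log2 odds where named) turned for Tubb4b to -0.170 (barcode confidence at least 0.9), -1.10 (all quality tags), -0.07 (log2 odds) and -0.301 (20 nt limit), for Tuba1c to 0.550 (all tags), 0.59 (log2 odds) and 0.582 (no weights), and for Tubb2b to 1.91 (all tags) and 0.34 (log2 odds). The 30 to 90 nt difference of Tubb5 turned to 0.806 (all tags) and the median tail difference of Tuba1a to 0.179 (barcode confidence) and 1.17 nt (no weights). The cause was not tested. The log2 odds, with 0.5 added to the counts, carry an offset that depends on depth. Over all genes they called 88 of 3852 at 24 h and 45 of 2283 at 48 h, where percentages called 13 and 10. Leaving out 1 library gave ranges that include a changed sign for the level of Tubb4b (-0.13 to 0.05) and Tubb2b (-0.18 to 0.02), the short share of Tubb4b (-0.879 to 1.51), Tuba1c (-1.68 to 0.715) and Tubb2b (-2.04 to 0.0924), the 30 to 90 nt share of Tubb5 (-1.98 to 0.607) and Tuba1a (-3.21 to 0.253), and the median tail of Tuba1a (-2.84 to 0.837), all over both time points. For Tubb2a and Tubb3 depth was the limit, with 34 and 99 reads in all.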
